A study of Mus musculus with 4 samples.

Results

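The 10 genes described here belong to the Wnt/β-catenin pathway and its set of target genes, and they were chosen by name: Axin2, Lef1, Tcf7, Lgr5, Ctnnb1, Apc, Nkd1, Notum, Rnf43 and Znrf3. Each symbol matched 1 row among the 51905 genes in the files, and the rule that selects them uses symbols and no measured value. RNA-seq had been used to ask which genes change in mouse colorectal cancer cells when Aurora-A, a mitotic kinase encoded by Aurka, is depleted. The 4 libraries came from CT26 and MC38 cells, both wild type by their labels, 48 h after seeding. In each line a lentiviral short hairpin RNA was aimed either at GFP, as the control (shGFP), or at the mouse Aurora-A transcript (shmaurka-1). There was 1 library for each line and hairpin, so no value below has a replicate, every cell carried a lentiviral hairpin, and the knockdown rests on 1 hairpin sequence.

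In the canonical Wnt pathway, a Wnt ligand binds a Frizzled receptor together with Lrp5 or Lrp6, and β-catenin then escapes destruction and enters the nucleus. Without a ligand, β-catenin is held by a complex built on Apc and Axin, phosphorylated and degraded. In the nucleus it binds the DNA-binding factors of the TCF/LEF family and switches on target genes, among them several that restrain the pathway in turn. In the colon the pathway maintains the stem cells of the crypt, and mutations that activate it are common in colorectal tumours.

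Values are given as fragments, which are the sequenced read pairs assigned to a gene, and as FPKM, which divides them by transcript length and library size. Only FPKM was used to compare the level of one gene with that of another. The libraries held 23752267 fragments (CT26 shGFP), 22207769 (CT26 shmaurka-1), 22915543 (MC38 shGFP) and 22803054 (MC38 shmaurka-1), so the deepest held 1.07 times the fragments of the shallowest. A library with 3 fragments or fewer of a gene was taken as being at the floor, below which a gene could not be told from one with no reads. The targeted gene Aurka had 5724 and 1093 fragments in CT26, control first, a fold of 0.208. The MC38 libraries had 2300 and 413, which is 0.184 times the control. The labels call CT26 a fibroblast and MC38 an epithelial cell, whereas Epcam and Cdh1, which define epithelia, had at most 6 fragments in any library. Krt18, an epithelial keratin, had 1516 and 1485 fragments in the shGFP and shmaurka-1 libraries of CT26 but 12 and 14 in those of MC38. Vil1, an epithelial microvillus gene, had the opposite order, with 0 in both CT26 libraries and 38 and 29 in MC38, and Krt8 had 13 to 22 in all. The mesenchymal gene Vim had at least 12373 in every library. Over the lists of markers, 8 of 10 colon epithelial genes exceeded the floor somewhere and summed to 43.6 and 43.1 FPKM in CT26, mostly from Krt18 and Krt20, and 1.39 and 1.08 in MC38, and all 10 mesenchymal genes did, with 921 and 930 FPKM against 572 and 579. The 6 leukocyte markers summed to at most 3.51 FPKM and the 4 endothelial ones to at most 1.76. The part of such differences in the results was not tested, and the lines are called by their names only.

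Of the 10 genes, Lgr5, Notum and Znrf3 had no promoter window from RefSeq (build GRCm38.p6), and Apc was left out of the search. The windows used were those of the other 6 genes (Axin2, Ctnnb1, Lef1, Nkd1, Rnf43 and Tcf7), 12 windows in all. They were searched on both strands for CTTTGA and CTTTGT, the short core that TCF/LEF factors are known to bind, and matches are in capitals in the gene's reading direction. Axin2 is shown as the target gene most used to read pathway activity, and Lef1 as the gene that was higher in CT26. Each line gives the 250 bases before an annotated start on the plus strand, namely chr11:108920099-108920348, chr3:131110047-131110296 and chr3:131156044-131156293.

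Axin2: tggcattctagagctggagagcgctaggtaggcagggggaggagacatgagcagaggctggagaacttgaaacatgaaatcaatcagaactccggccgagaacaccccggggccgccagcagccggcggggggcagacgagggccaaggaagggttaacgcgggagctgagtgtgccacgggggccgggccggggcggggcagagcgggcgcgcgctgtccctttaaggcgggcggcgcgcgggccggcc
Lef1, first start: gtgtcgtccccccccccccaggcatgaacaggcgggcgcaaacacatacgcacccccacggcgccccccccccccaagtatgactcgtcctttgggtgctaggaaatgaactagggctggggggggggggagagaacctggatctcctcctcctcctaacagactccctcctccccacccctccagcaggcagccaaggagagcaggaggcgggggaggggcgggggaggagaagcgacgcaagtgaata
Lef1, internal start: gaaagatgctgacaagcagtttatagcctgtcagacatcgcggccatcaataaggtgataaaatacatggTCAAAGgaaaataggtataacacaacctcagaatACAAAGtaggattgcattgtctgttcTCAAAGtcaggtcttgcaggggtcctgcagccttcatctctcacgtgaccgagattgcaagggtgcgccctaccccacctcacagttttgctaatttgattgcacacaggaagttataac

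The internal Lef1 start lies 45997 bases downstream of the first, and its window was the one of the 12 that held a match. It held 2 matches to CTTTGA and 1 to CTTTGT, at -180, -146 and -120 bases from that start, all read on the opposite strand. Of 32851 windows of this length, 27.6% held a match to either core and 5.15% held 2 or more, so a match describes the window and does not mark a binding site. The windows of the first Lef1 start and of Axin2 held none of these letters, which says nothing about more distant sequence.

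The members ran from the abundant Ctnnb1 to Lgr5, which was barely read, and the 2 lines expressed different subsets. In FPKM, Ctnnb1 was highest in every library, between 87.0 and 104. In CT26 it was followed by Apc (14.3 and 14.6 FPKM) and Lef1 (12.6 and 14.8 FPKM), whose ranges overlapped, and by Znrf3 (6.17 and 6.04 FPKM). All other members were at most 0.359 FPKM in CT26. In MC38 the order in FPKM was Ctnnb1, Apc (15.4 and 14.4), Tcf7 (7.64 and 7.70), Znrf3 (6.70 and 6.37), Lef1 (2.99 and 3.31) and Rnf43 (1.32 and 1.45), with no overlap between neighbours. Below them in MC38, Notum (0.366 and 0.421 FPKM) and Axin2 (0.325 and 0.512 FPKM) overlapped, and Nkd1 and Lgr5 were at most 0.0932 FPKM.

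**Figure D1:**
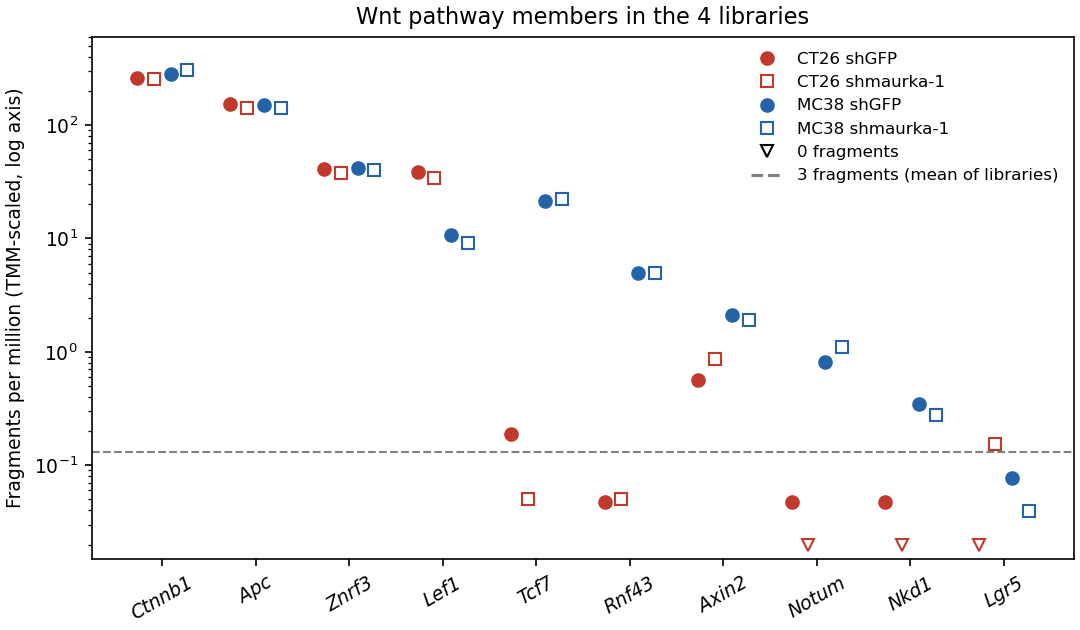
Level of each of the 10 genes in the 4 libraries, in fragments per 1000000 after TMM scaling, on a log axis that does not correct for transcript length. Filled circles are shGFP and open squares shmaurka-1, with CT26 in red and MC38 in blue, triangles mark libraries with 0 fragments, and the dashed line marks 3 fragments. Ctnnb1, Apc and Znrf3 lie close together across all libraries, whereas Tcf7, Rnf43 and Notum are near or under the dashed line in CT26 and above it in MC38.

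Of the 10 genes, 9 exceeded the floor in at least 1 library, 8 passed the filter for the comparison of the lines (a mean of at least 10 counts in either line) and 5 passed that for the knockdown (such a mean in each line). Between the lines, 5 of the 8 were called, against 76% of all 14661 genes tested, so being called is not a mark of these genes. Lef1 was higher in CT26, where 35.9% of all genes were, and Axin2, Tcf7, Rnf43 and Notum were higher in MC38, where 40.1% were. Tcf7, Rnf43 and Notum passed the filter through MC38 alone and so had to differ. Each line was a single cell line whose libraries differed in hairpin, so these calls compare the lines and no class of tumour, and the 95% intervals of ratios below cover counting error only.

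At the cell surface, Rnf43 and Znrf3 encode related ubiquitin ligases that remove Frizzled receptors. Znrf3 (chromosome 11, 5276323 to 5444847) had 869 and 743 fragments in CT26 and 1093 and 1027 in MC38, for shGFP and shmaurka-1 in that order. After scaling, the MC38 to CT26 ratio was 1.04 (95% interval 0.978 to 1.11), and the lines were not called different (log2 difference, CT26 minus MC38, -0.06, SE 0.13, edgeR adjusted p = 0.671). Rnf43 (chromosome 11, 87662721 to 87735539) had 1 fragment in each CT26 library and 129 and 125 in those of MC38. It was thus at the floor in CT26 alone, and the MC38 to CT26 ratio was 101 (95% interval 27.6 to 837, log2 difference -6.64, SE 0.57). Rnf43 passed the filter through MC38 alone, which set the direction of its test, so no p-value is given. With 1 count added, the log2 difference was -5.78 between the shGFP libraries and -5.71 between the shmaurka-1 libraries. Of the summed FPKM of this pair, Rnf43 made up 0.157% and 0.182% in CT26 and 16.5% and 18.5% in MC38. The pair therefore consisted of Znrf3 almost alone in CT26 and of both genes in MC38.

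Lgr5 (chromosome 10, 115450310 to 115587780) encodes a receptor for R-spondins, the secreted proteins that block these ligases, and marks intestinal stem cells. It had 0 and 3 fragments in CT26 and 2 and 1 in MC38, at or under the floor everywhere, so no fold is given and expression was not detectable at this depth. Its relatives were read in both lines. Lgr6 held 75.5% and 73.9% of the summed FPKM of the 3 Lgr receptors in CT26, whereas Lgr4 held 94.2% and 92.7% in MC38. In CT26, 495 and 311 fragments of Lgr6 stood for 8.31 and 7.33 FPKM. In MC38, 67 and 69 stood for 0.476 and 0.442. The FPKM per fragment of Lgr6 thus differed between libraries, and these shares are approximate. By fragments, Lgr4 had 190 and 173 in CT26 and 745 and 508 in MC38. Notum (chromosome 11, 120646030 to 120661815), a secreted enzyme that inactivates Wnt ligands by removing their lipid, had 1 and 0 fragments in CT26 and 21 and 28 in MC38. Its MC38 to CT26 ratio was 38.9, known only within 6.66 to 1566.5 (log2 difference -5.12, SE 0.93). Notum also passed the filter through MC38 alone, so no p-value is given. By single hairpins, with 1 count added, its log2 difference was -3.22 (shGFP) and -4.71 (shmaurka-1).

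**Figure D2:**
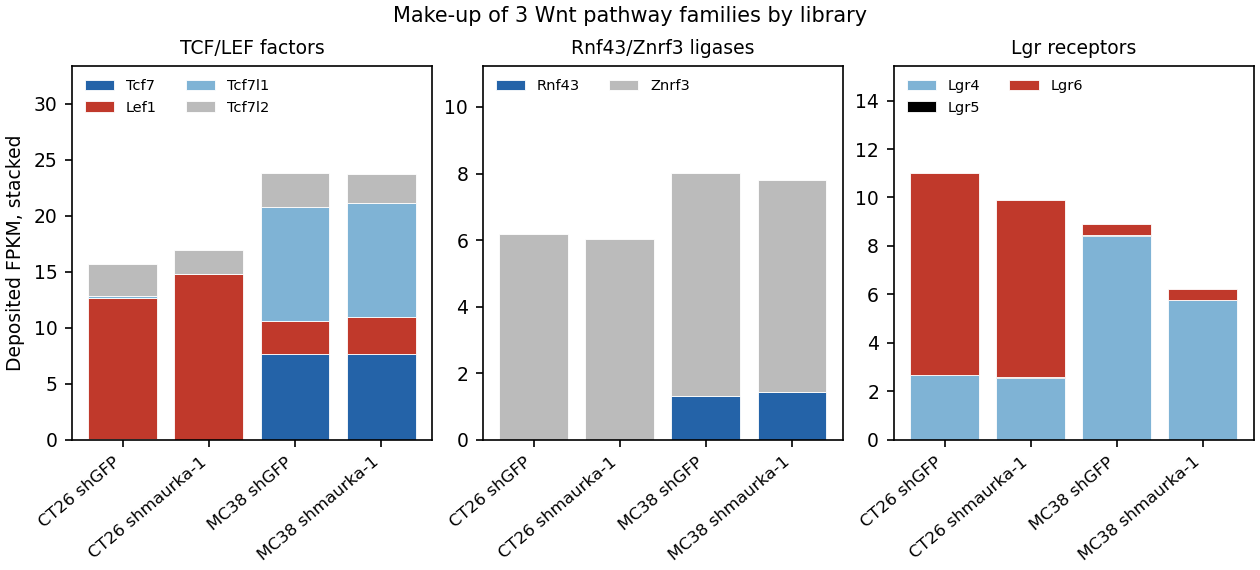
Deposited FPKM of the TCF/LEF factors, the Rnf43/Znrf3 ligases and the Lgr receptors, stacked by gene, with 1 bar for each library and an axis from 0 in each panel. Lef1 makes up 79.9% and 87.1% of the TCF/LEF FPKM in the CT26 bars, and Tcf7l1 with Tcf7 most of it in the MC38 bars.

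Inside the cell, Ctnnb1 (chromosome 9, 120924451 to 121277197), which encodes β-catenin, had 5481 and 5037 fragments in CT26 and 7255 and 7729 in MC38. Both MC38 libraries were thus above both CT26 libraries, by a scaled ratio of 1.13 (95% interval 1.10 to 1.16), but the line difference was not called (log2 difference -0.17, SE 0.09, edgeR adjusted p = 0.0857). Its locus in the files also covers Ulk4, which exceeded the floor. Apc (chromosome 18, 34207774 to 34322189), the scaffold of the destruction complex, had 3217 and 2750 fragments in CT26 and 3900 and 3556 in MC38. After scaling it was level between the lines (MC38 to CT26 ratio 0.991, 95% interval 0.958 to 1.03, log2 difference 0.01, SE 0.10, edgeR adjusted p = 0.901). At least 97.6% of the summed FPKM of Apc and its relative Apc2 came from Apc in every library.

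The sizes of these last differences depend on the scaling. With libraries scaled by total count in place of TMM, the median log2 difference of all genes went from -0.06 to -0.41, the share of calls that were higher in CT26 from 47.3% to 33.1%, and Apc, Ctnnb1 and Znrf3 were then called lower in CT26, with Apc turned to -0.33.

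Axin2 (chromosome 11, 108920348 to 108950783) encodes the inducible scaffold of the destruction complex and is itself a target of the pathway. It had 12 and 17 fragments in CT26 and 55 and 49 in MC38. By fragments the lines did not overlap, and MC38 was 2.85 times as high (95% interval 1.87 to 4.46, log2 difference -1.47, SE 0.42, edgeR adjusted p = 0.000654). By FPKM they did overlap, at 0.306 and 0.359 in CT26 and 0.325 and 0.512 in MC38. The 2 deposited units parted because 1000 counts of Axin2 stood for 24.1 and 18.1 FPKM in CT26 but 6.69 and 11.6 in MC38, a highest to lowest ratio of 3.61 against a median of 1.055 over the genes tested. The call was lost with FPKM (log2 difference -0.24, limma adjusted p = 0.491, with 0.1 added) and with DESeq2 (-1.50, adjusted p = 0.181), so the direction held in the fits run and the call did not. In either unit Axin2 was scarce, since Axin1, the constitutive scaffold, made up at least 98.6% of the summed FPKM of the pair in every library. Nkd1 (chromosome 8, 88521353 to 88594884), a target gene whose product restrains Dishevelled, had 1 and 0 fragments in CT26 and 9 and 7 in MC38, too few to pass the filter. Its MC38 to CT26 ratio was 12.7 (95% interval 1.97 to 532).

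In the nucleus, the lines differed in the make-up of the TCF/LEF family. Lef1 (chromosome 3, 131109025 to 131224356) had 808 and 669 fragments in CT26 and 279 and 233 in MC38. Both CT26 libraries were well above both of MC38, by a scaled ratio of 3.64 (95% interval 3.29 to 4.03, log2 difference 1.86, SE 0.15, edgeR adjusted p = 3.40e-34). Tcf7 (chromosome 11, 51949881 to 52286179) showed the opposite order, with 4 and 1 fragments in CT26 and 557 and 562 in MC38. That is a ratio of 178 (95% interval 75.9 to 548, log2 difference -7.55, SE 0.34). No p-value is given, since Tcf7 passed the filter through MC38 alone. From the libraries of 1 hairpin at a time, with 1 count added and no test, the log2 difference was -6.52 (shGFP) and -7.87 (shmaurka-1). The locus given for Tcf7 is shared with 18 other genes, of which Ppp2ca, Skp1a, Ube2b, Cdkl3, Cdkn2aipnl and Olfr1372-ps1 exceeded the floor, and that of Lef1 is shared with Gm43352, so reads may have been divided among them. Across all genes, 16.2% differed over 8-fold between the lines, which sets the size of these differences against the rest of the transcriptome.

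Their relatives Tcf7l1 and Tcf7l2 complete the family. Tcf7l1, known mostly as a repressor of target genes, had 3 and 0 fragments in CT26 and 913 and 874 in MC38. Tcf7l2, the main family member of normal colon epithelium, had 191 and 142 in CT26 and 237 and 205 in MC38 and was not called different (edgeR adjusted p = 0.718). In FPKM, Lef1 therefore made up 79.9% and 87.1% of the family in CT26, followed by Tcf7l2 with 18.5% and 12.8%. In MC38 the family FPKM was divided into 42.6% and 42.9% for Tcf7l1, 32.1% and 32.5% for Tcf7, 12.6% and 14.0% for Lef1 and 12.8% and 10.7% for Tcf7l2. The leading factor was the same with either hairpin in each line.

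After Aurora-A knockdown, none of the 5 members tested was called in the effect common to both lines. Of all 11928 genes, 2.79% were called (333 genes, edgeR adjusted p below 0.05, 1.67% higher and 1.12% lower). At such a share, 0 of 5 is no mark of these genes. Of these 333 calls, 59.8% were higher with shmaurka-1, or 49.1% of the calls made with total-count scaling. The common log2 change was 0.06 for Ctnnb1 (SE 0.09, edgeR adjusted p = 0.894), -0.10 for Apc (SE 0.10, adjusted p = 0.779) and -0.08 for Znrf3 (SE 0.13, adjusted p = 0.887). It was -0.18 for Lef1 (SE 0.15, edgeR adjusted p = 0.699) and 0.11 for Axin2 (SE 0.37, adjusted p = 0.962). The count at an unadjusted p below 0.05 was also 0, as was the count called by DESeq2, which gave no adjusted p for Axin2. These standard errors rest on a spread set by all genes together, since no gene had a replicate culture. They were smallest for Ctnnb1 and Apc and largest for Axin2, which had 12 to 55 fragments a library.

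**Figure D3:**
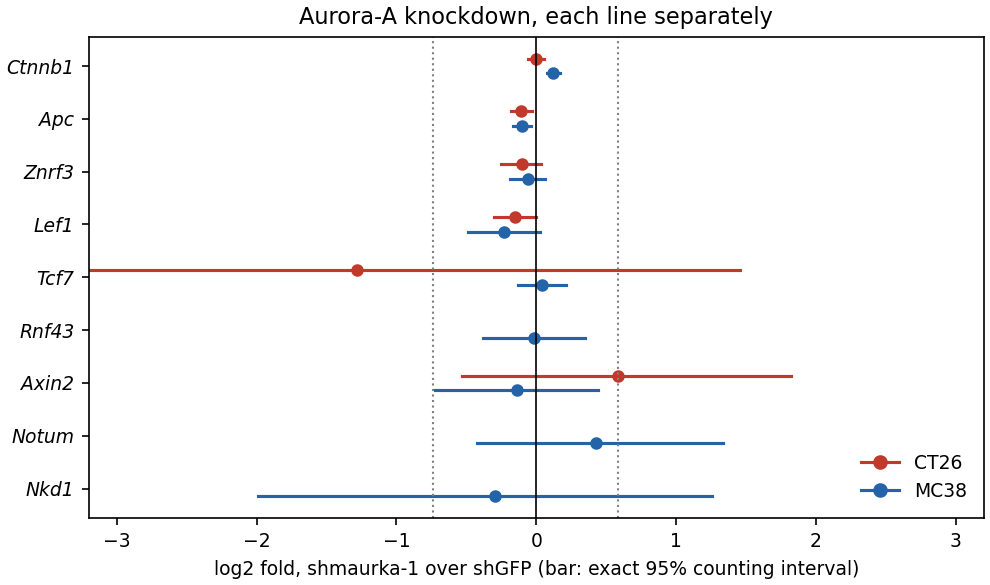
Log2 fold, shmaurka-1 over shGFP, of 9 of the genes in each line (CT26 red, MC38 blue), with exact 95% intervals that compare 2 libraries and cover counting error only. Dotted lines mark 1.5-fold and 0.6-fold. CT26 values of Rnf43, Notum and Nkd1, with at most 1 fragment, are not drawn, and the bar of Tcf7 in CT26, from 4 and 1 fragments, runs past the left edge to -7.50. The well-measured genes Ctnnb1, Apc, Znrf3 and Lef1 sit between the dotted lines in both lines.

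Within CT26, 1 of the 5 tested genes, Axin2, passed the fold limits of 1.5 and 0.6, and within MC38 none did. Of all genes, 3.2% were above and 2.58% below these limits in CT26, and 2.47% and 1.03% in MC38. Ctnnb1 was 0.999 times the control in CT26 (95% interval 0.960 to 1.04) and 1.09 times in MC38 (1.05 to 1.12). By FPKM it went from 92.5 to 87.0 in CT26, a log2 difference of -0.09 that lies outside the interval by counts. The log2 fold of Apc was -0.11 for CT26 (95% interval -0.18 to -0.03), while MC38 gave -0.10 (-0.17 to -0.04). By FPKM the CT26 value turned to 0.03 (with 0.1 added), so no direction is given for Apc in CT26. Znrf3 was at -0.11 in CT26 (95% interval -0.25 to 0.04) and -0.06 in MC38 (-0.18 to 0.06). These intervals compare 2 libraries and not the conditions, so they carry no error between cultures.

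Lef1 was lower with shmaurka-1 by counts, at -0.15 in CT26 (95% interval -0.30 to -0.0038) and -0.23 in MC38 (-0.49 to 0.03), but higher by FPKM in both, with 12.6 and 14.8 for shGFP and shmaurka-1 of CT26 and 2.99 and 3.31 for those of MC38. The FPKM that stood for 1000 of its counts was 14.7 and 19.0 in CT26 and 12.1 and 15.8 in MC38, so no direction is given for this gene. Axin2 passed the upper limit in CT26 by a small margin, with 12 and 17 fragments and a log2 fold of 0.59 (95% interval -0.53 to 1.82). It was under the limit in 7 of 9 alternatives, among them total-count scaling (0.56), 5 counts added (0.47) and FPKM with 0.1 added (0.18). In MC38 it had 55 and 49 fragments and a log2 fold of -0.13 (95% interval -0.72 to 0.44), whereas its FPKM there were 0.325 and 0.512, a log2 difference of 0.52 with 0.1 added, so no direction is given for MC38.

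Tcf7, Rnf43, Notum and Nkd1 could be followed in MC38 alone. Tcf7 went from 557 to 562 fragments, a log2 fold of 0.04 (95% interval -0.13 to 0.21). Rnf43 went from 129 to 125, a log2 fold of -0.02 (95% interval -0.38 to 0.35). Notum went from 21 to 28, at 0.42 (95% interval -0.42 to 1.33), and Nkd1 from 9 to 7, both too few to tell from no change.

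The other genes of the pathway, 94 in a list of ligands, receptors, relays and targets, place these values in context. The list was drawn up from textbook knowledge, with earlier results of these data known. Of the 45 tested for the knockdown, Wnt10a alone was called, where 2.79% of all genes were. Wnt10a, a Wnt ligand, had 2108 fragments in the CT26 control and 934 after knockdown (log2 fold -1.05, 95% interval -1.17 to -0.94), and MC38 had 156 and 135 (-0.18, 95% interval -0.52 to 0.16). Its common log2 change was -0.75 (SE 0.14, edgeR adjusted p = 4.40e-05), and whether the lines differ in it was not tested. The call was lost with DESeq2 (-0.68, adjusted p = 0.254) and with FPKM (-0.58, limma adjusted p = 0.394, with 0.1 added). Between the lines, 22 of 55 tested were higher in CT26, 29 were higher in MC38 and 4 were not called, against 35.9% and 40.1% of all genes higher in CT26 and in MC38. Of the 55, 10 passed the filter through 1 line alone and so had to differ, namely Rspo3, Fzd1, Fzd3, Fzd9, Ror1, Dkk2, Wif1, Apc2, Tcf7l1 and Bambi. With libraries scaled by total count the 22, 29 and 4 became 14, 31 and 10.

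Among 23 ligands and R-spondins, 4 passed the filter. Wnt10a was higher in CT26 (log2 difference 3.63, SE 0.15), where its 35.2 and 17.8 FPKM made up most of the list's sum of 36.0 and 18.7. Wnt10b, Wnt9a and Rspo3 were higher in MC38, but at no more than 1.58 FPKM. Rspo3, which encodes a ligand of the Lgr receptors, had 0 fragments in both CT26 libraries and 19 and 11 in MC38. In ligand secretion, Porcn, which attaches the lipid that Notum removes, was higher in CT26 (log2 difference 2.18, SE 0.23), and Wls, the carrier of lipid-bearing Wnts, in MC38 (-0.71, SE 0.10).

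Of 13 receptors tested, 4 were higher in CT26 (2 with total-count scaling) and 9 in MC38, beside the shares of all genes above. Fzd3, on the CT26 side, had 489 and 421 fragments against 0 and 2 in MC38. Fzd1 had 8 and 6 fragments in CT26 and 448 and 515 in MC38, Fzd9 had 2 and 0 against 168 and 132, and the Wnt5a receptor gene Ror1 had 2 and 0 against 17 and 32. These 4 are among those that passed the filter through 1 line, whereas Fzd2, Fzd4, Fzd5 and Fzd7 were above the floor in all 4 libraries. Among secreted antagonists, Dkk2, a ligand of Lrp5 and Lrp6, had 72 and 39 fragments in CT26 and 5 and 9 in MC38. Wif1, which binds Wnt proteins, had 7 and 6 against 23 and 23, and Dkk3 was not called.

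In the cytoplasmic relay and destruction complex, 8 of 15 genes were higher in CT26 and 6 in MC38, with a median log2 difference of 0.27. With total-count scaling this median turned to -0.08, with 2 higher in CT26 and 7 in MC38, so no direction is given for the list. Apc2 had 1 fragment in each CT26 library and 102 and 85 in MC38. Amer1, a membrane partner of Apc, was also higher in MC38 (log2 difference -3.24, SE 0.16), whereas the casein kinase gene Csnk1e (1.85, SE 0.10) and the Dishevelled gene Dvl1 (0.80, SE 0.11) were higher in CT26. Of 10 nuclear partners, 8 were higher in MC38, where 40.1% of all genes were. Among them were Tcf7l1, which passed the filter through MC38 alone, the corepressor gene Tle2 (-2.56, SE 0.27) and the coactivator gene Bcl9 (-1.26, SE 0.14). Tle1 was the one higher in CT26 (1.31, SE 0.11).

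Of 15 other known target genes 8 could be tested, and 6 of these were higher in CT26, where 35.9% of all genes were, among them Ccnd1, which encodes cyclin D1, with 19643 and 15344 fragments against 2405 and 2041 in MC38 (log2 difference 3.31, SE 0.10). Cd44, an adhesion receptor gene (2.15, SE 0.10), and Ephb2, an ephrin receptor gene of the crypt (3.06, SE 0.18), were likewise higher in CT26. Bambi, which encodes a decoy receptor of TGF-β signalling, with 1 and 2 fragments in CT26 and 104 and 93 in MC38, was the one higher there, and Ephb3 was not called. Ascl2, Sp5, Olfm4 and Cdx1, targets or markers of crypt cells, had 0 fragments in all 4 libraries. Many of these targets answer to other pathways as well, and β-catenin protein or its location was not measured here.

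**Figure D4:**
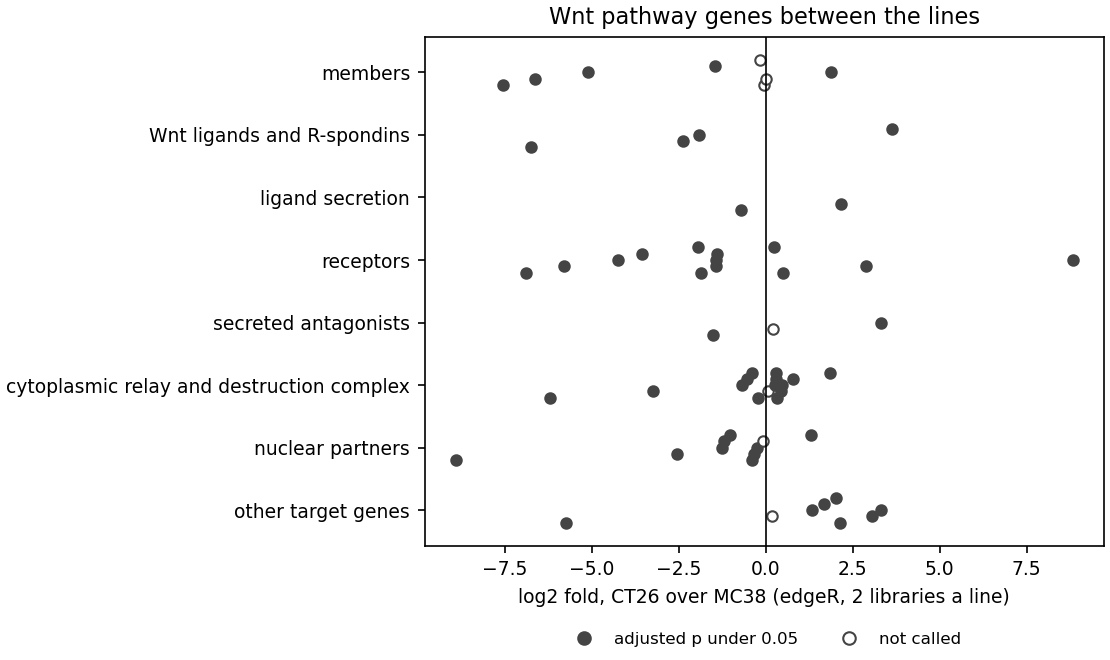
Log2 difference, CT26 over MC38, of the 8 members and the 55 other pathway genes tested, by role. Filled points were called (edgeR adjusted p below 0.05) and open points were not. Points of the cytoplasmic relay lie mostly near 0, those of the nuclear partners mostly to the left and those of the other target genes mostly to the right.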

How the data were processed

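Total RNA of 4 cultures, CT26 or MC38 cells with shGFP or shmaurka-1, was sequenced from strand-specific libraries. The submitters' processing notes name Trimmomatic 0.36, HISAT2, Cufflinks 2.2.1, Cuffdiff and GRCm39, whereas 99.7% of 20049 gene loci in the files overlapped the gene of that name in GRCm38.p6 and 8.91% of 26888 overlapped it in GRCm39, so coordinates are given as GRCm38. The strand setting of the counting is not given in the sources used here. The authors deposited expected counts (estimated counts per gene, scaled between libraries) and FPKM values. Dividing a library's deposited counts by its step (1.06, 1.17, 0.885 and 0.901) gave whole fragments, within 0.05, for 97.0% to 97.6% of nonzero values, and these fragments are printed.

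Counts rounded to whole numbers were tested with edgeR 4.0.16 in R 4.3.3 (quasi-likelihood test, TMM, line and hairpin as terms, Benjamini-Hochberg adjustment over all genes tested). This leaves 1 residual degree of freedom, and edgeR estimated an infinite prior, which means that all genes set the spread. SEs are the log2 value divided by the root of F. Genes were kept at a mean count of 10 or more in both lines (knockdown) or in 1 of them (lines). Folds within a line used TMM-scaled counts with 1 count added, the study's limits of 1.5 and 0.6, and exact conditional binomial 95% intervals. DESeq2 1.42.0, limma 3.58.1, other scalings, filters, FPKM and, chosen after seeing the data, recovered fragments were alternatives. Members and lists were chosen with earlier results of these data known. From each list, at most the 4 called genes with the largest line difference, any gene called in the knockdown, and close relatives of members are named, and genes at 0 or not called and Fzd2, Fzd4, Fzd5 and Fzd7 were named after their values were seen. Python 3.11.15 with scipy 1.17.1, numpy 2.4.6, pandas 2.3.3 and matplotlib 3.10.9 did the rest.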

Additional observations from a re-analysis of the deposited data

Results flagged for a closer look

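The knockdown values of Axin2 and Ctnnb1 lay on opposite sides of no change in the 2 lines by counts. For Axin2 the log2 fold in CT26 minus that in MC38 was 0.72, from 12 and 17 fragments in CT26 and 55 and 49 in MC38. By FPKM with 0.1 added both lines were higher for Axin2, by 0.18 in CT26 and 0.52 in MC38, so this contrast does not hold in the other deposited unit. For Ctnnb1 it was -0.12, with the CT26 fold at 0.999 (a log2 difference of -0.09 by FPKM with 0.1 added). Neither difference between the lines was tested, since each line has 1 library per hairpin.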

How the results depend on the processing

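The main knockdown fit pairs the libraries by cell line. With no replicate block for the line, 0 genes were called (13 at an unadjusted p below 0.05) against 333. The knockdown count was 101 when genes needed a mean count of 50, 29 with DESeq2, and 6 and 1 with limma on FPKM with 0.1 and 1 added. No member was called for the knockdown in any of these fits. Genes above 1.5-fold in CT26 numbered 382, but 2539 with no filter on low counts, 165 at a mean count of 50 and 203 by FPKM with 1 added. Those below 0.6-fold in CT26 numbered 308, against 3037, 84 and 77, and 512 with a limit of 1/1.5. In MC38 the 295 above became 3089, 93 and 127, and the 123 below became 2821, 31 and 27, and 241 with the limit of 1/1.5. Between the lines, 8 members were called with total-count scaling, where Apc turned to -0.33 (edgeR adjusted p = 0.00147, lowest to highest over its tested fits 0.00147 to 0.944), and 3 of 6 at a mean count of 50. The causes were not tested. For the knockdown, leaving out a library empties an arm. For the lines, the values from 1 hairpin at a time also had 1 count added in place of the edgeR fit, so their distance from the fitted values of Tcf7, Rnf43 and Notum is not that of leaving out libraries alone. For Rnf43 both hairpins gave nearly the same value (-5.78 and -5.71). No fit without a single library was run. Lgr5, Nkd1, Notum and Axin2 each had at most 55 fragments in a library.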
